A study of Mus musculus with 6 samples.

Results

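SMADs are the proteins that carry signals of the TGFβ family from the cell surface to the nucleus. The genes examined were the receptor-regulated Smad1, Smad2, Smad3 and Smad5, the common partner Smad4, the inhibitory Smad7, the nuclear corepressors Ski and Skil, and the ubiquitin ligases Smurf1 and Smurf2. They were chosen by name, by a rule that takes no measured value, and 10 of 10 were found among the 13008 genes of the deposited table. Values were measured by RNA-seq in Ly6C Low macrophages (MPs) from regenerating skeletal muscle, in 3 Control and 3 Cripto KO samples. None of the 10 genes differed between the groups past the threshold of the test, an adjusted p under 0.05 in limma, which 0.131% of all genes passed. For each of them the 95% interval of the fold change lay within 1.5-fold in either direction, as it did for 93.1% of genes with a mean value of at least 10. Ski was the only gene of the 10 without overlap between the groups, by a narrow margin, beside 14.5% of all genes.

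Ligands of the TGFβ family bind pairs of serine/threonine kinase receptors, which phosphorylate the receptor-regulated SMADs at their C-terminus. TGFβ, activin and Nodal act mainly through SMAD2 and SMAD3, and BMPs act mainly through SMAD1 and SMAD5. The phosphorylated proteins join SMAD4, enter the nucleus and bind DNA with other factors, and SMAD6, SMAD7, SKI, SKIL and the SMURF ligases limit the response at successive steps. In MPs that clear and repair injured muscle, TGFβ is a known signal of the anti-inflammatory state, and Cripto is a membrane-anchored protein that acts as a Nodal co-receptor and binds other ligands of the family. RNA-seq measures transcripts only, so the phosphorylation and location of SMAD proteins were not measured here.

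Hind limb muscles of C57BL/6J mice, labelled as male and aged 3 months, were injured with cardiotoxin, a snake venom toxin that destroys muscle fibers. F4/80+/Ly6C Low MPs were sorted by FACS on day 5. Cripto KO samples came from mice of genotype Tg:LysMCre::Cripto-/-, in which Cre is expressed from the lysozyme M locus in myeloid cells, and the study's methods add the R26mTmG reporter and a gate on GFP+ cells for both groups. The labels give the 3 Control samples as wild type, whereas by the methods the control mice carry LysMCre and R26mTmG without the floxed Cripto allele. The study describes deletion as incomplete over all MPs, and reports a higher efficiency among GFP+ cells that was still short of full deletion. Since Tdgf1, the gene of Cripto, was not analysed here, no check of the deletion in each sample was made. The study compared these samples to ask whether Ly6C Low MPs that lack Cripto keep the expression profile of this population.

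The samples held between 12688968 and 15659847 reads, and every Cripto KO sample was deeper than every Control sample. All 14 listed MP markers were present, with a summed normalized value of 20753 to 20827 in Control and 19429 to 20885 in Cripto KO samples, led by C1qb. Lymphocyte markers were at the floor of 3 reads, with 2 of 8 listed genes in the table, and neutrophil markers summed to at most 4.27, with S100a9, Camp and Ngp at the floor. Endothelial markers summed to 54.7 to 65.2 in Control, against 57.0 to 63.6 in Cripto KO samples, and muscle markers to 35.1 to 71.3 against 19.3 to 55.1. Of the 8 muscle markers present, 5 had an unadjusted p under 0.05 in limma, beside 8.59% of all genes. On average 5 of the 8 were higher in Control and 3 in Cripto KO samples. Their median log2 difference, Control minus Cripto KO, was 0.58. Fibroblast markers are given beside the target genes. A pair of libraries stood apart in single genes. Xist was at 171 in Control replicate 1 against at most 0.885 elsewhere, although all mice are labelled as male. The sex of the animals behind each sample was not tested. Lyz2, the gene of lysozyme M, was at 11066 in Control replicate 2 against at most 28.3 elsewhere. Control replicates 1 and 3, at 25.2 and 21.4, lay within the Cripto KO range of 21.2 to 28.3 for Lyz2. Cre is expressed from the locus of this gene, and whether the 3 Control samples share the same Cre genotype was not tested. The members' differences without Control replicate 1 and without Control replicate 2 are given with the comparison over the list.

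Promoter sequences of 3 genes are shown because they hold the letters that SMAD proteins are known to bind. They are Ski, whose groups did not overlap, Smurf2, which had the most matches of the 7 genes examined, and Smad6, the inhibitory SMAD outside the list. Windows of Smad2, Smad4 and Smad7 were not examined, and none was found for Skil. The sequences are from RefSeq on GRCm38.p6, written 5′ to 3′ on the gene's strand, and run from 250 bases before the RefSeq start to at most 30 bases into the annotated transcript. Capitals mark matches on either strand to the SMAD box CAGAC, to the GC-rich element GGCGCC and to the palindrome GTCTAGAC, which itself holds no CAGAC.
Ski, chr4:155222563-155222785, minus strand: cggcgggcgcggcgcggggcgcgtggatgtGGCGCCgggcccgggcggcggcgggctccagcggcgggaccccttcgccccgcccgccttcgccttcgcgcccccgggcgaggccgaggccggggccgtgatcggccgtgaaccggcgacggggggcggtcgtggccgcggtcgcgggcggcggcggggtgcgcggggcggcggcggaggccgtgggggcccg
Smurf2, chr11:106920686-106920965, minus strand: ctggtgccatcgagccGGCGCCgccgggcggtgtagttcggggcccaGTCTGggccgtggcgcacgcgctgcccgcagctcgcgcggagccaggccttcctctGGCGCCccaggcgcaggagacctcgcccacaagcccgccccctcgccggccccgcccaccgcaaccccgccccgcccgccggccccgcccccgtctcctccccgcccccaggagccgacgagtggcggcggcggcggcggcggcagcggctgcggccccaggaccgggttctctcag
Smad6, chr9:64022030-64022309, minus strand: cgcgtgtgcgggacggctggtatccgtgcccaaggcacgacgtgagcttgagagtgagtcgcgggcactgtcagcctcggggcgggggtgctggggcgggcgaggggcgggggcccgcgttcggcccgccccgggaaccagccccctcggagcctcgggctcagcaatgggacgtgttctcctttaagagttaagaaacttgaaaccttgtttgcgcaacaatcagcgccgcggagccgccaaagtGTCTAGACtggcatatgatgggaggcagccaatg
In these stretches 87.4% of the bases of Ski, 81.1% of those of Smurf2 and 65.4% of those of Smad6 were G or C. With the start base counted as 0, the GGCGCC of Ski began at -220 and the GTCTAGAC of Smad6 at -4. Smurf2 had GGCGCC at -234 and -147, CAGAC on the other strand at -203, and a further CAGAC at 27 that runs past the printed stretch. Over whole windows of 300 bases, CAGAC was found in 49.6%, GGCGCC in 11.9% and GTCTAGAC in 0.213% of 32851 RefSeq windows. Of the other members whose windows were examined, Smurf1 held CAGAC at 2 sites, and Smad1 and Smad3 held none of these letters. Smad5 held GGCGCC in a pair of overlapping windows and CAGAC in another window. A match in a window is a description of the sequence and not a binding site.

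On GRCm38 (GENCODE annotation), all 10 genes are protein-coding. Smad2 (ENSMUSG00000024563, chr18:76241580-76310963, plus strand), Smad4 (ENSMUSG00000024515, chr18:73639009-73703780, minus strand) and Smad7 (ENSMUSG00000025880, chr18:75367529-75395935, plus strand) lie on the same chromosome. Smad3 (ENSMUSG00000032402, chr9:63646767-63757994, minus strand) is on the same chromosome as Smad6 (ENSMUSG00000036867, chr9:63953076-64022059, minus strand). Smad1 (ENSMUSG00000031681) spans chr8:79338395-79399518 on the minus strand, and Smad5 (ENSMUSG00000021540) spans chr13:56703010-56742377 on the plus strand. Ski (ENSMUSG00000029050, chr4:155154075-155222592) is on the minus strand and Skil (ENSMUSG00000027660, chr3:31095058-31122577) on the plus strand. Smurf1 (ENSMUSG00000038780, chr5:144876495-144965847) and Smurf2 (ENSMUSG00000018363, chr11:106820066-106920715) are both on the minus strand. No annotated exon on the opposite strand overlaps an exon of these genes. At most 1.08% of the 31-base words of a member's transcripts, in Smad5, also occur in another gene. Each member had between 132 and 3023 reads in each sample, and all passed every filter on low values that was tried.

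**Figure D1:**
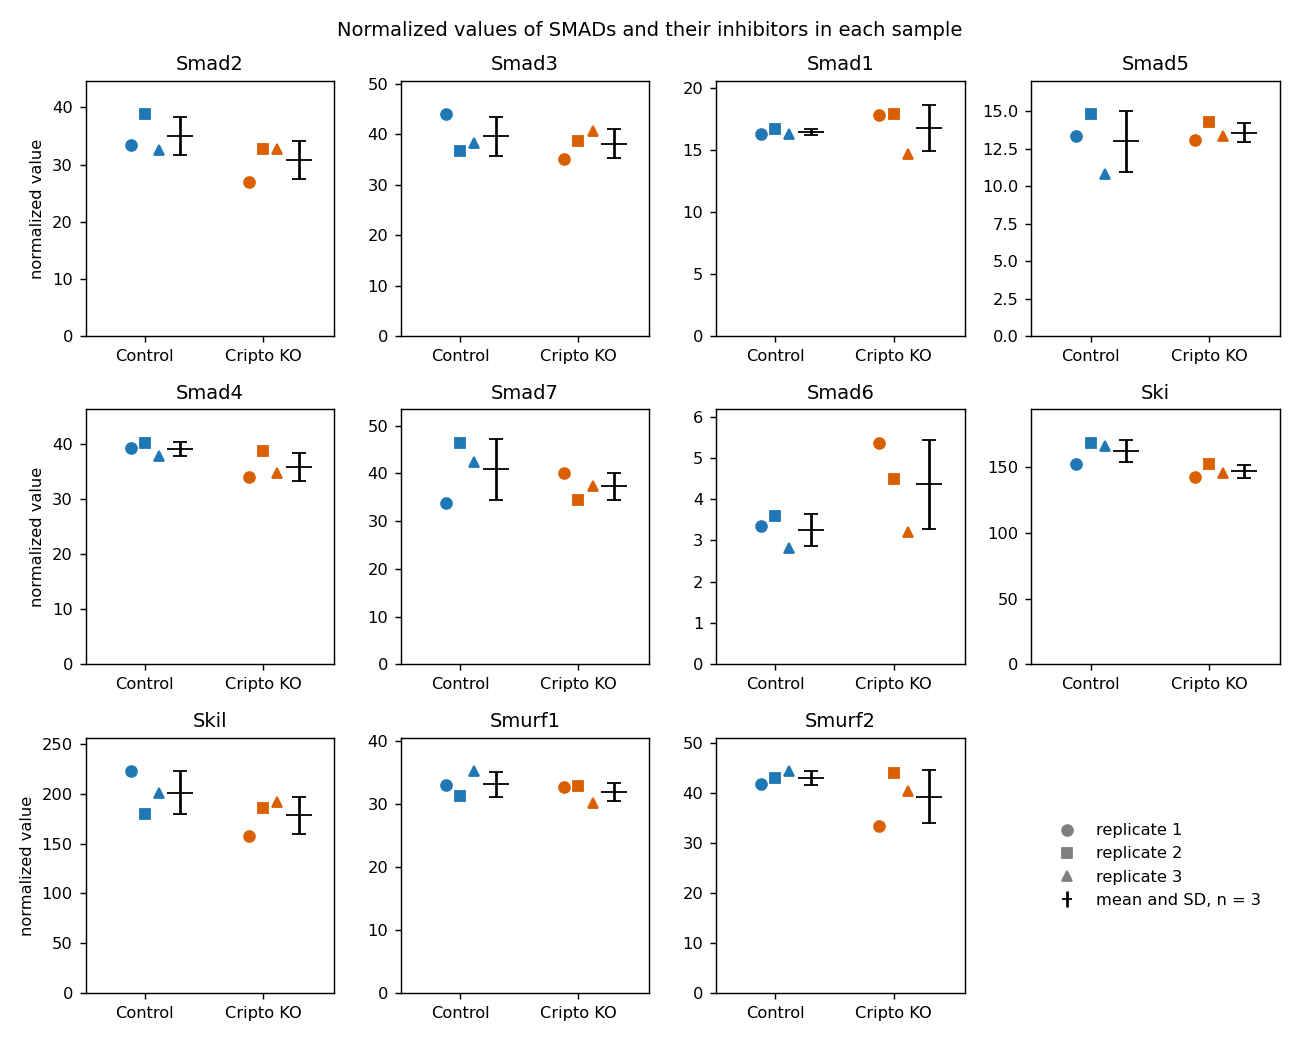
Normalized value of each gene (vertical axis, starting at 0, with its own scale for each gene) in the 3 Control (blue) and 3 Cripto KO (orange) samples, with the marker shape giving the replicate number and the cross the mean ± SD of 3 samples. The groups overlap for every gene except Ski, and Smad6, which is not on the list, is plotted for comparison.

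Smad2 and Smad3 encode the receptor-regulated SMADs of the TGFβ and activin branch. Normalized values are reads, scaled per 1000000 of an adjusted library total. Smad2 was at 33.5, 38.8 and 32.6 in the Control samples and at 27.0, 32.7 and 32.7 in the Cripto KO samples. Its lowest value was in Cripto KO replicate 1 and its highest in Control replicate 2, and the remaining 4 samples lay within 32.6 to 33.5. The means were 34.95 ± 3.35 for Control and 30.8 ± 3.33 for Cripto KO samples (SD, n = 3 each). On the log2 scale the difference, Control minus Cripto KO, was 0.18 (SE 0.11, 95% interval -0.06 to 0.43, limma adjusted p = 0.690). This was the largest of the 10 differences in size, and its interval reached 1.35-fold, the highest upper limit among the members. The log2 difference of Smad2 was 0.091 without Cripto KO replicate 1 and 0.11 without Control replicate 2, and up to 0.23 without other samples.

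Smad3 was at 44.0, 36.7 and 38.2 in Control and at 35.1, 38.6 and 40.7 in Cripto KO samples. Control replicate 1 was the highest and Cripto KO replicate 1 the lowest, and the other 2 Cripto KO samples were above the other 2 Control samples. The means of 39.6 ± 3.85 and 38.1 ± 2.84 (SD, n = 3 each) differed by 0.054 on the log2 scale (SE 0.10, 95% interval -0.17 to 0.27, limma adjusted p = 0.911). Levels of different genes were set side by side per 1000 exon bases. This length counts all annotated exons merged and not the transcripts expressed here, so ratios and orders between genes depend on it. On this scale Smad2 was at 0.562 ± 0.0960 of the level of Smad3 in Control and at 0.509 ± 0.0251 in Cripto KO samples (SD, n = 3 each). These ratios overlapped between the groups.

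Smad1 and Smad5 encode the receptor-regulated SMADs of the BMP branch, and they had the lowest levels per length of the list. Smad1 was at 16.3, 16.7 and 16.3 in Control and at 17.8, 17.9 and 14.6 in Cripto KO samples. The Control values lay close together, inside the span of the Cripto KO values, 2 of which were above and 1 below them. With means of 16.4 ± 0.228 and 16.8 ± 1.84 (SD, n = 3 each), the log2 difference was -0.025 (SE 0.11, 95% interval -0.28 to 0.23, limma adjusted p = 0.968).

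Smad5 was at 13.4, 14.8 and 10.8 in Control and at 13.0, 14.3 and 13.3 in Cripto KO samples. Here the Control samples were the more spread, with both the highest and the lowest value of the 6. The means were 13.0 ± 2.02 and 13.6 ± 0.635 (SD, n = 3 each), and the log2 difference was -0.072 (SE 0.14, 95% interval -0.38 to 0.24, limma adjusted p = 0.916). Smad5 also had the fewest reads, and the lower limit of its interval, 0.767-fold, was the lowest of the 10. Summed per length, Smad2 plus Smad3 stood at 2.55 ± 0.160 times Smad1 plus Smad5 in Control and at 2.32 ± 0.324 times in Cripto KO samples (SD, n = 3 each). This ratio between the branches ran from 2.37 to 2.67 in Control and from 2.04 to 2.68 in Cripto KO samples, so the groups overlapped over the whole Control range.

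Smad4, the partner shared by both branches, was at 39.4, 40.3 and 37.9 in Control and at 34.1, 38.8 and 34.8 in Cripto KO samples. Of the Cripto KO samples only replicate 2 reached the Control range. The means of 39.2 ± 1.21 and 35.9 ± 2.51 (SD, n = 3 each) gave a log2 difference of 0.13 (SE 0.08, 95% interval -0.06 to 0.31, limma adjusted p = 0.711). Smad4 was among the least variable members, with a highest value 1.18 times its lowest.

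Smad7 encodes the inhibitory SMAD that blocks the receptors and brings SMURF ligases to them, and it is itself a target gene of TGFβ. It was at 33.9, 46.4 and 42.3 in Control and at 40.1, 34.5 and 37.4 in Cripto KO samples. Control replicate 1 was the lowest and Control replicate 2 the highest of the 6, so that all Cripto KO values fell between Control values. The means were 40.9 ± 6.39 and 37.3 ± 2.80 (SD, n = 3 each), with a log2 difference of 0.12 (SE 0.12, 95% interval -0.15 to 0.40, limma adjusted p = 0.815). Smad7 had the largest spread within groups of the 10, a residual SD of 0.18 on the log2 scale. The log2 difference depended on single libraries: it was 0.25 without Control replicate 1, at an unadjusted p of 0.0297 (limma adjusted p = 0.425), but 0.023 without Control replicate 2, 0.066 without Cripto KO replicate 2 and 0.17 without Cripto KO replicate 1.

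Smad6, the other inhibitory SMAD, acts mainly on the BMP branch. It was at 3.35, 3.60 and 2.82 in Control, and at 5.37, 4.50 and 3.21 in Cripto KO samples, from 34 to 84 reads. Cripto KO replicates 1 and 2 were above all Control samples and Cripto KO replicate 3 was inside their range. The log2 difference was -0.40 with a wide interval (SE 0.24, 95% interval -0.94 to 0.14, limma adjusted p = 0.690), which reached past 1.5-fold. It was -0.23 without Cripto KO replicate 1 and -0.60 without Cripto KO replicate 3, the latter at an unadjusted p of 0.0329 (limma adjusted p = 0.845). Per length, Smad7 stood at 8.995 ± 1.75 times Smad6 in Control and at 6.34 ± 1.68 times in Cripto KO samples (SD, n = 3 each), with overlap between the groups. Smad9, the remaining SMAD gene, was not among the genes of the table.

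Ski and Skil encode related corepressors that bind SMAD2, SMAD3 and SMAD4 and recruit histone deacetylases, and Skil is also a target gene of TGFβ. Ski was at 152.7, 168.7 and 166.2 in Control and at 142.5, 152.4 and 145.7 in Cripto KO samples. Every Control value was above every Cripto KO value, but the lowest Control sample, at 152.65, and the highest Cripto KO sample, at 152.44, nearly met. The means of 162.5 ± 8.65 and 146.9 ± 5.10 (SD, n = 3 each) gave a log2 difference of 0.15 (SE 0.07, 95% interval -0.0055 to 0.30, limma adjusted p = 0.599). Its unadjusted p of 0.0573 was the smallest of the list and ranked 1243 among the 13008 genes of the limma fit. Groups did not overlap for 14.5% of all genes, so 1 such gene among 10 is near the background. Without Control replicate 1 the log2 difference of Ski was 0.19 at an unadjusted p of 0.0183 (limma adjusted p = 0.369), and over the other samples left out it was between 0.12 and 0.17.

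Skil was at 222.6, 179.7 and 201.0 in Control and at 157.2, 186.1 and 191.5 in Cripto KO samples. Control replicates 1 and 3 were above all Cripto KO samples, and Control replicate 2 was inside their range. The means were 201.1 ± 21.4 and 178.3 ± 18.5 (SD, n = 3 each), with a log2 difference of 0.17 (SE 0.10, 95% interval -0.05 to 0.40, limma adjusted p = 0.690). Leaving out Control replicate 2 gave 0.25 at an unadjusted p of 0.0364 (limma adjusted p = 0.604), whereas leaving out Control replicate 1 gave 0.098 and leaving out Cripto KO replicate 1 gave 0.086.

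Summed per length, Ski plus Skil was at 50.4, 48.9 and 50.6 in Control and at 41.8, 46.6 and 45.9 in Cripto KO samples. All Control sums were above all Cripto KO sums, with means of 49.97 ± 0.952 and 44.8 ± 2.59 (SD, n = 3 each). The sum was formed with the values of both genes known, and it was not tested. It was the only 1 of 6 such sums without overlap, beside 14.5% of single genes. Smad2 plus Smad3 (11.1 ± 0.574 and 10.4 ± 0.876), Smad1 plus Smad5 (4.37 ± 0.302 and 4.51 ± 0.331) and Smurf1 plus Smurf2 (12.2 ± 0.473 and 11.4 ± 0.855, Control first, SD, n = 3 each) overlapped, as did Smad1 to Smad5 with and without Smad4. Set against the receptor-regulated SMADs and Smad4 summed, the corepressors stood at 1.92 ± 0.102 times in Control and at 1.82 ± 0.0400 times in Cripto KO samples (SD, n = 3 each), and this ratio did overlap. In sorted but bulk samples, fewer cells of a type and less RNA per cell cannot be told apart.

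Smurf1 and Smurf2 encode HECT-type ligases that attach ubiquitin to receptor-regulated SMADs and, with SMAD7, to the receptors. Smurf1 was at 32.9, 31.1 and 35.1 in Control and at 32.7, 32.7 and 30.2 in Cripto KO samples. It varied least over the 6 samples, with a highest value 1.17 times its lowest, and the groups overlapped. The means of 33.1 ± 2.00 and 31.9 ± 1.47 (SD, n = 3 each) differed by 0.053 on the log2 scale (SE 0.09, 95% interval -0.14 to 0.25, limma adjusted p = 0.896).

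Smurf2 was at 41.7, 43.0 and 44.4 in Control and at 33.5, 43.9 and 40.4 in Cripto KO samples. Cripto KO replicate 1 was well under the other 5 samples, while Cripto KO replicate 2 was inside the Control range. The means of 43.0 ± 1.33 and 39.3 ± 5.30 (SD, n = 3 each) gave a log2 difference of 0.14 (SE 0.10, 95% interval -0.10 to 0.38, limma adjusted p = 0.751). Without Cripto KO replicate 1 the log2 difference of Smurf2 was 0.030, and without Cripto KO replicate 2 it was 0.23. The ratio of Smurf2 to Smurf1 per length was 1.34 ± 0.0682 in Control and 1.27 ± 0.187 in Cripto KO samples (SD, n = 3 each), with overlap.

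**Figure D2:**
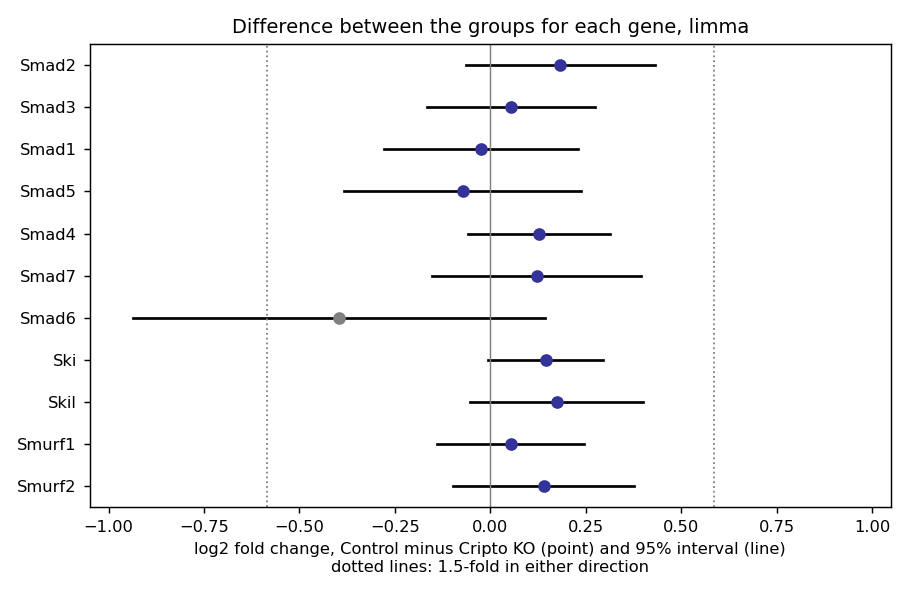
Log2 fold change of each gene, Control minus Cripto KO, from limma (points, horizontal axis) with its 95% interval (lines), and dotted lines at 1.5-fold in either direction. The interval of every listed gene crosses 0 and stays within the dotted lines, while that of Smad6 (grey) passes the lower line.

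Across the list, limma called 0 of 10 genes at an adjusted p under 0.05, beside 0.131% of all 13008 genes. At an unadjusted p under 0.05 it called 0 of 10, beside 8.59% of all genes, and edgeR and DESeq2 on the recovered reads also gave 0 of 10 at that level. The adjusted p-values of the members were between 0.599 and 0.968. The log2 difference was above 0, that is higher in Control, for 8 members and below 0 for Smad1 and Smad5. Over all genes 52.6% were above 0, and among genes with a mean value of at least 10, as all members have, 59.7% were. The members' median was 0.13, beside 0.030 for the latter genes and 0.011 for all genes. The median size of the difference without regard to sign was 0.13 for the members and 0.09 for genes with a mean value of at least 10. Intervals within 1.5-fold were found for 10 of 10 members and for 93.1% of genes with a mean value of at least 10, so this share is near the background.

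The lowest of the 6 samples was Cripto KO replicate 1 for Smad2, Smad3, Smad4, Ski, Skil and Smurf2. That sample was also the lowest for 26.7% of the 7730 genes with a mean value of at least 10, more than any other sample, and its normalized values had the smallest sum of the 6, 994778. The members' median deviation from their own means was -0.13 in Cripto KO replicate 1, on the log2 scale, beside -0.03 for genes with a mean value of at least 10. In the other 5 samples this median was between -0.04 and 0.09. Without Cripto KO replicate 1 the median difference of the members was 0.08, with 8 of 10 above 0, beside 0.02 for the other genes of that level. Without Control replicate 1, the sample with Xist, it was 0.11 with 7 of 10 above 0, and without Control replicate 2, the sample with high Lyz2, it was 0.11 with 8 of 10 above 0.

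**Figure D3:**
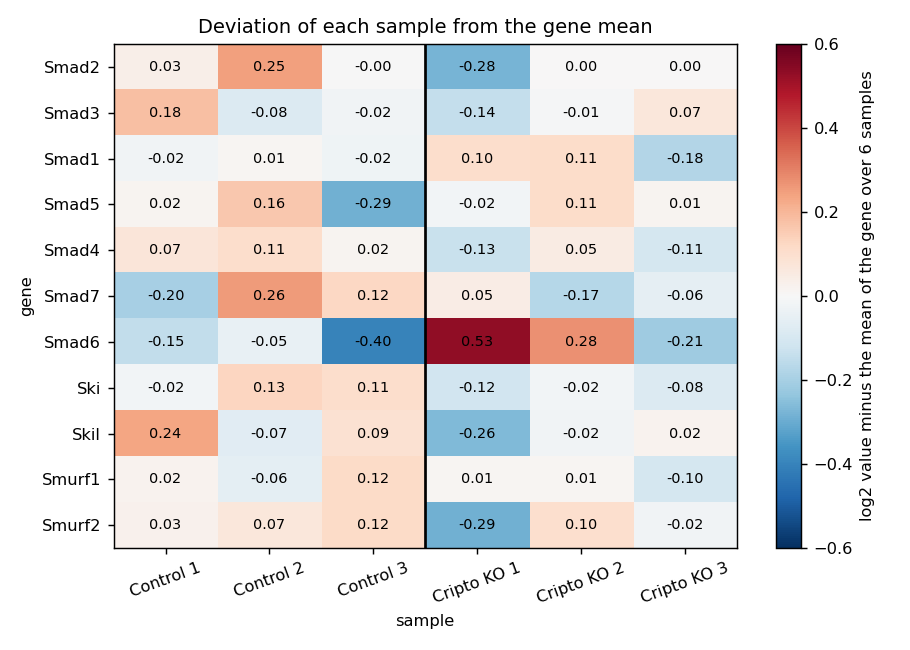
Log2 value of each gene (rows) in each sample (columns) minus the mean of that gene over the 6 samples, as numbers and as color from blue (lower) to red (higher). The column of Cripto KO replicate 1 is below 0 for 7 of the 10 listed genes, between -0.29 for Smurf2 and -0.017 for Smad5, and above 0 for Smad1, Smad7, Smurf1 and the unlisted Smad6, and the vertical black line separates the groups.

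The levels of the genes were ordered by the normalized value per 1000 merged exon bases over all 6 samples. Ski came first at 27.8 ± 1.92 and Skil second at 19.6 ± 2.25 (SD, n = 6 each), and their sample ranges did not overlap. Both stood well above the SMADs they repress, at percentiles 87.2 and 82.9 of 12989 genes. Smad4 followed at 10.1 ± 0.679, Smad7 at 8.65 ± 1.07, Smad3 at 7.02 ± 0.566, Smurf2 at 6.68 ± 0.652 and Smurf1 at 5.12 ± 0.269 (SD, n = 6 each). Within this run of 5 genes the sample ranges of neighbours overlapped. Compared within each sample, Smad4 was above Smad7 and Smurf2 above Smurf1 in 6 of 6 samples, Smad7 was above Smad3 in 5 of 6 and Smad3 above Smurf2 in 3 of 6. Smad2 at 3.74 ± 0.428, Smad1 at 2.65 ± 0.190 and Smad5 at 1.79 ± 0.185 (SD, n = 6 each) were separated from one another, at percentiles 51.6, 43.9 and 35.5. Smad6, at 1.19 ± 0.296 (SD, n = 6), had a range that overlapped that of Smad5, although it was below Smad5 in 6 of 6 samples, and stood at percentile 27.7. Smad7, the inhibitory SMAD with the higher level, was thus at 7 or more times Smad6 in every Control sample and at more than 5 times in every Cripto KO sample.

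**Figure D4:**
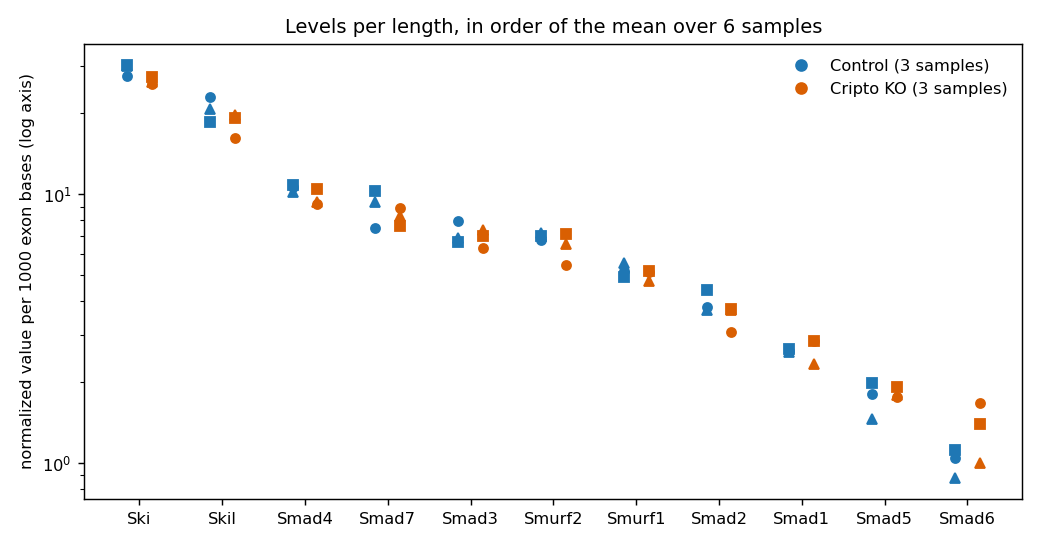
Normalized value per 1000 merged exon bases (vertical axis, log scale) in each Control (blue) and Cripto KO (orange) sample, with genes ordered by their mean over 6 samples and marker shape giving the replicate number. Ski and Skil lie above all SMADs and SMURFs, and Smad5 and Smad6 are at the low end.

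The genes whose log2 values ran most alike to those of Ski over the 6 samples were Slc15a4, a lysosomal amino acid transporter (Pearson r = 0.998), Pepd, which encodes prolidase (0.994), Kif3a, a kinesin motor subunit (0.994), Eef1a1, the translation elongation factor (0.992), and Washc4, a subunit of the WASH complex (0.992). They were the top 5 of 7729 genes with a mean value of at least 10. The 6 samples are shared by all genes, and such values are found by choice among many, so they are given as a description. Each of the 5 was higher in Control on average, with log2 differences from 0.11 for Pepd to 0.29 for Washc4.

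SMAD activity also depends on partners, modifying enzymes and transport, and these genes were read from the same fit. Over 112 genes outside the members, each counted once, 0 had an adjusted p under 0.05 and 14, or 12.5%, had an unadjusted p under 0.05, beside 8.59% of all genes. Of these, 9 were higher in Control, where 4.6% of all genes had such a p, and 5 were higher in Cripto KO samples, where 3.99% did. The groups did not overlap for 22 of them, or 19.6%, beside 14.5% of all genes. Their median log2 difference was 0.01, beside 0.011 for all genes. These lists overlap in part. The list of TGFβ targets also holds the members Smad7 and Skil, the list of BMP targets holds Smad7, and Smad6 is in both.

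**Figure D5:**
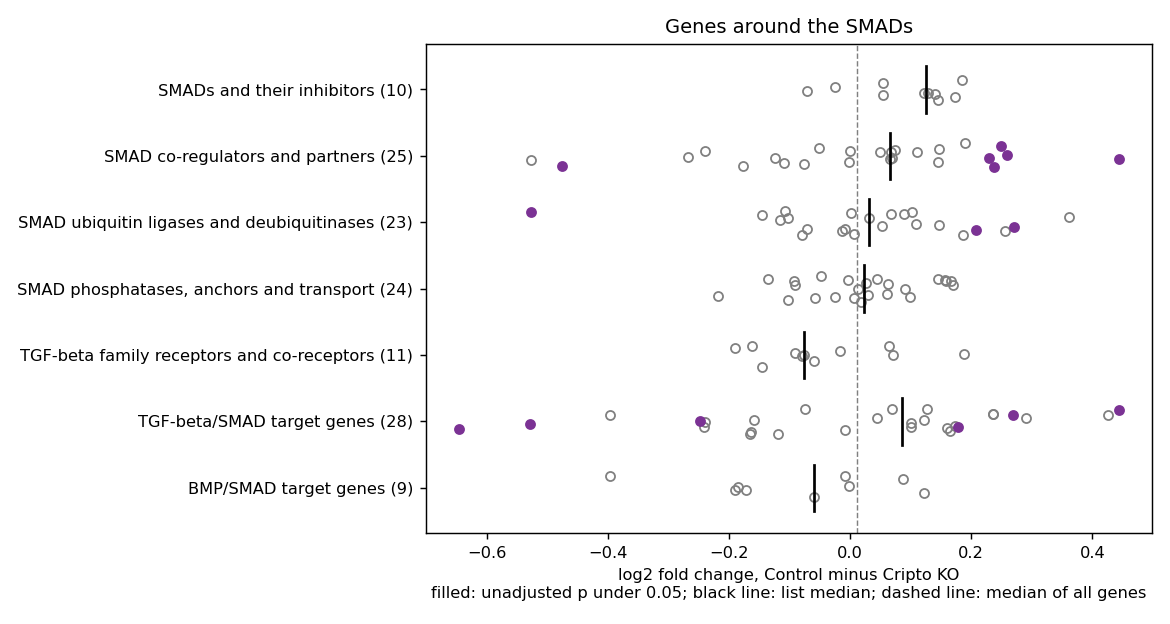
Log2 fold change, Control minus Cripto KO, of each gene (circles) in the member list and in 6 lists of genes around the SMADs, with the number of genes present in brackets, the list median as a black line and the median of all genes as a dashed line. Filled circles mark an unadjusted p under 0.05, none of which is a member, and the medians lie between -0.08 and 0.13.

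Among co-regulators and DNA-binding partners, 25 of 30 listed symbols were present. Znf423 and Zfp423, among those not found, name the same gene. An unadjusted p under 0.05 was seen for 6, beside 8.59% of all genes. Of these, 5 were higher in Control, where 4.6% of all genes had such a p. The gene with the smallest p was Cited2, a CBP/p300-binding regulator that is also a target gene of TGFβ. Cited2 was at 172.6, 204.5 and 199.4 in Control and at 150.3, 140.3 and 132.4 in Cripto KO samples, so that every Control sample was above every Cripto KO sample. The log2 difference of Cited2 was 0.44 (SE 0.08, 95% interval 0.26 to 0.63, limma adjusted p = 0.156). DESeq2 on the recovered reads gave an adjusted p of 0.00314, limma without Control replicate 1 gave 0.0367, and over all 17 alternatives the range was 0.00314 to 0.615.

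Zeb2, a repressor that binds receptor-regulated SMADs, had a mean of 257.2 ± 8.69 in Control and 214.9 ± 2.33 in Cripto KO samples (SD, n = 3 each), a log2 difference of 0.26 (limma adjusted p = 0.295). Ncor1, a nuclear corepressor, differed by 0.25 and Atf3, a stress-induced partner of SMAD3, by 0.24 on the log2 scale (limma adjusted p = 0.420 and 0.500). Tgif2, a SMAD corepressor, was at 6.96, 5.71 and 4.94 in Control and at 8.79, 7.89 and 7.62 in Cripto KO samples, a log2 difference of -0.48 (limma adjusted p = 0.510). Its groups did not overlap, with the higher values in Cripto KO samples, the opposite side from Ski.

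Of 24 listed ubiquitin ligases and deubiquitinases, 23 were present and 3 had an unadjusted p under 0.05, beside 8.59% of all genes. Nedd4, a HECT ligase of the same family as the SMURFs, was at 7.55, 9.57 and 7.30 in Control and at 14.1, 9.95 and 11.3 in Cripto KO samples (log2 difference -0.53, limma adjusted p = 0.494). Skp1a, an adaptor of SCF ligases, differed by 0.21 and Uchl5, a deubiquitinase that acts with SMAD7 on the receptors, by 0.27 on the log2 scale, both higher in Control (limma adjusted p = 0.448 and 0.510). The list's median was 0.03. Of 25 phosphatases, anchors and transport factors, 24 were present and 0 had an unadjusted p under 0.05, with a median of 0.02. The smallest p-values there belonged to Ctdsp1, a small C-terminal domain phosphatase, with a log2 difference of 0.16, and to Dab2, an endocytic adaptor, with -0.13 (limma adjusted p = 0.598 and 0.664).

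Upstream of the SMADs, 11 of 14 receptors and co-receptors were present, and 0 had an unadjusted p under 0.05. Their median log2 difference was -0.08, with 3 above and 8 below 0. Tgfbr1, the type I receptor of TGFβ, was at 168.3, 205.0 and 165.0 in Control and at 165.2, 155.0 and 150.1 in Cripto KO samples, with overlap and a log2 difference of 0.19 (limma adjusted p = 0.625). Bambi, a decoy receptor, had a log2 difference of -0.19 (limma adjusted p = 0.686).

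Downstream, 28 of 31 listed symbols of TGFβ targets were present. The symbols not found include Ccn1 and Ccn2, other names of Cyr61 and Ctgf, which were found. An unadjusted p under 0.05 was seen for 6, 3 in each direction, beside 8.59% of all genes. Higher in Control were Cited2, Cdkn1a, a cell cycle inhibitor with a log2 difference of 0.27 (limma adjusted p = 0.540), and Tgfbi. Higher in Cripto KO samples were Col1a1, Ctgf and Cyr61, the last 2 of which encode matricellular proteins. Ctgf was at 3.79, 4.35 and 3.31 in Control and at 6.70, 5.49 and 5.69 in Cripto KO samples, a log2 difference of -0.65 (limma adjusted p = 0.420). Cyr61 had a log2 difference of -0.53 and Col1a1, a collagen gene, of -0.25 (limma adjusted p = 0.420 and 0.392), again without overlap between the groups. The 10 fibroblast markers, led by Col1a1, summed to 468.3 to 491.2 in Control, against 552.1 to 600.1 in Cripto KO samples. On average 10 of 10 were higher in Cripto KO samples, and 5 had an unadjusted p under 0.05, beside 8.59% of all genes. None of the 10 was at the floor, and their part in the values of Ctgf, Cyr61 and Col1a1 was not tested. Of 16 listed BMP targets, 9 were present and 0 had an unadjusted p under 0.05, with a median log2 difference of -0.06. Bambi and Smad6, given above, had the smallest p-values among them.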

How the data were processed

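RNA was sequenced from 3 Control and 3 Cripto KO samples of sorted MPs, grouped by their labels. The authors trimmed reads with cutadapt 1.7.1, used RSEM 1.2.20 for quantification against mouse transcripts (GRCm38, release 91) and normalized with limma. The deposited table holds a normalized signal for each gene in each sample. Its values equal reads with an added 0.5, per 1000000 of an adjusted library size, so whole reads were recovered for 100.0% of 78048 values (tolerance 0.01 read). Read totals were 12688968 to 14141773 in Control and 14633880 to 15659847 in Cripto KO samples, and a floor of 3 reads covers counting error only.

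Log2 values without a pseudocount were compared over all 13008 genes with limma 3.58.1 (R 4.3.3; lmFit, eBayes with a variance trend, no block), with Benjamini-Hochberg adjustment. The step was tested on simulated data. Alternatives were adding 0.5 or 1 before the log, keeping genes with a mean of at least 1, median centring, quantile normalization, no trend, the robust option, voom weights, edgeR 4.0.16 and DESeq2 1.42.0 on recovered reads, a block for the replicate number, and fits without each sample. The edgeR test called 17 genes on those reads. No 2 samples agreed within sampling noise. The labels number the replicates without naming the animals, so the p-values measure the spread between these samples. Exon lengths and positions came from GENCODE mouse release 21 (GRCm38). Promoter windows came from RefSeq and were used for 6 of 10 members and Smad6. Those of Smad2, Smad4 and Smad7 were left out without being examined, and none was found for Skil. Figures were made with Python 3.11.15, numpy 2.4.6, pandas 2.3.3 and matplotlib 3.10.9.

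The members, the gene lists and the tests were chosen with earlier results of these data known. Named are all members, Smad6 and Smad9, and in each list the genes with an unadjusted p under 0.05 (at most 5, by p) or else the 2 with the smallest p. Also named are the 5 genes most alike to the member with the smallest p, and markers that lead a sum or are at the floor. Tgfbi was named after its value was seen, to complete a count.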

Additional observations from a re-analysis of the deposited data

How the results depend on the processing

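None of the 10 members was called under any of 17 alternatives, with adjusted p-values between 0.369 and 1.00. Of 170 pairs of member and alternative, 165 kept the direction, among them all 110 pairs that used the 6 samples. The other 5 came from leaving out a sample, with ranges of -0.12 to 0.024 for Smad1, -0.024 to 0.11 for Smad3 and -0.17 to 0.054 for Smad5 on the log2 scale. Over all genes 17 were called, against 6 with quantile normalization, 5 without a variance trend, 31 with the robust option, 9 with voom weights, 74 with DESeq2 and 2 with the replicate block, and 5 (without Cripto KO replicate 2) to 31 (without Control replicate 1) when a sample was left out. The numbers were 7 without Control replicate 3 or Cripto KO replicate 3 and 10 without Cripto KO replicate 1. The cause was not tested. Same-numbered samples had correlations of -0.158, 0.0368 and 0.0162 between their deviations from the group means, beside -0.160 to 0.127 for other pairs. Pairing by number was thus not seen, but such values cannot exclude it. Under the block 0 members were called. Of the genes around the SMADs, 0 were called, against 1 (Cited2) with DESeq2, and 0 to 1 when a sample was left out (Cited2 without Control replicate 1). With 132 to 3023 reads per member and sample, no member was near the floor of 3 reads. Smad6, at 34 to 84 reads, had a wider interval than each of the 10 members.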
